A study of Mus musculus with 13 samples.

Results

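The genes for the G1 cyclins, their kinases and the phosphatase Cdc25a were examined for binding of the cohesin subunits STAG2 and STAG1 and of CTCF in mouse urothelial cells. The 9 genes, of 21883 protein-coding genes in the annotation, were Ccnd1, Ccnd2, Ccnd3, Ccne1, Ccne2, Cdk2, Cdk4, Cdk6 and Cdc25a. They were chosen by name, for their role in the step from G1 to S phase. All peaks that overlapped a gene's span in mm10 or the 20 kb on either side of it, called its window here, were taken. The 9 windows held 643 of the 563452 peaks in 12 lists, which merged into 99 of 114651 sites, a site being a set of overlapping peaks from 1 or more libraries.

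The data came from chromatin immunoprecipitation with sequencing (ChIP-seq) on NU1 cells, a wild-type mouse urothelial line that became immortal spontaneously during passaging. Quiescent cells were grown to confluence and then kept in complete medium with 1 uM rosiglitazone, which activates PPAR gamma, a nuclear receptor, together with 0.5 uM erlotinib, which blocks the kinase of the EGF receptor. Proliferating cells had the same medium without both agents, so confluence, rosiglitazone and erlotinib cannot be told apart as parts of the quiescent state. Antibodies against STAG2, STAG1 and CTCF were used in each state on 2 biological replicates, so that 12 libraries from a single line form 6 groups. A further sample, titled as input and labelled with IgG, was not analysed here.

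Each cohesin complex, a protein ring that extrudes DNA loops and keeps sister chromatids together, contains either STAG1 or STAG2. Loop extrusion often halts at DNA bound by CTCF, which recognises its sites with zinc fingers. D-type cyclins, made in response to growth factors such as EGF, activate CDK4 and CDK6, which phosphorylate the retinoblastoma protein and its relatives. E-type cyclins then activate CDK2 and complete the release of E2F transcription factors, while the phosphatase CDC25A removes inhibitory phosphates from CDK2. In resting cells the DREAM complex, which holds a retinoblastoma relative and E2F4, represses many cell cycle genes through E2F and CHR elements in their promoters. The series addressed, by its title, how STAG2 and DREAM act together in resting urothelium. Peak lists carry no expression levels, so neither the cell type nor the resting state could be checked against marker genes.

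Promoters are shown for 3 genes whose start sites are described further on: Ccnd3, with 2 annotated starts that differ in their CTCF peaks, Cdk4, with CTCF in 2 of 4 libraries at its start, and Cdc25a, with all 3 proteins in every library. The sequences are from RefSeq on GRCm38.p6, the assembly of mm10, on the plus strand, with 250 bases before and 50 bases from the start site. Capitals mark the motif matches described after them. The Ccnd3 promoters lie at chr17:47504801-47505100 and chr17:47593217-47593516, the Cdk4 promoter at chr10:127063285-127063584 and the Cdc25a promoter at chr9:109875329-109875628.
Ccnd3 first start: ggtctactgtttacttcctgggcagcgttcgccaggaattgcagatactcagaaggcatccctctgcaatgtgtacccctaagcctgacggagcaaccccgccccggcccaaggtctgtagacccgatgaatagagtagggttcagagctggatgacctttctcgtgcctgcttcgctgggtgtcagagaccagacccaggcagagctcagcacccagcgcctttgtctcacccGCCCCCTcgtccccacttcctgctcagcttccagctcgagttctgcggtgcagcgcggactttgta
Ccnd3 second start: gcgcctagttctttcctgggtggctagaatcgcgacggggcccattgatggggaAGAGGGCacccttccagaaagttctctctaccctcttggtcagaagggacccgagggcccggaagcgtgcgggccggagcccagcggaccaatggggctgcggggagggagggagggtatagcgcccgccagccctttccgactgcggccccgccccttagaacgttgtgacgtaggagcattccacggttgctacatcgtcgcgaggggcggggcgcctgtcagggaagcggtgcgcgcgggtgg
Cdk4: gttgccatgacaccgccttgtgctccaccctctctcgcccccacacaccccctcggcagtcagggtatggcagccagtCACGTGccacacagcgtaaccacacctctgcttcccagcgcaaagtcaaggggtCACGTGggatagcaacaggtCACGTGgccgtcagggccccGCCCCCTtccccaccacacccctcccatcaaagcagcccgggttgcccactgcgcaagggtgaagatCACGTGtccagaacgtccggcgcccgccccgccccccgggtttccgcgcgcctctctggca
Cdc25a: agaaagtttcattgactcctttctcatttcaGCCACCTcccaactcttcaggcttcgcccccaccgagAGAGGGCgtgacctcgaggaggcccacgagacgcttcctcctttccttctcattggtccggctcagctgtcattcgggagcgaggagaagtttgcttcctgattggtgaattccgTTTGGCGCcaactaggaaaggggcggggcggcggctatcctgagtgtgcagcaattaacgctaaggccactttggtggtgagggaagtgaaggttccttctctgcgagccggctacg

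The promoter table matched 6 of the 9 genes, with 7 promoters; Ccnd1, Ccnd2 and Ccne2 are not among them. Both strands were searched for 4 motifs, and no match overlapped another in the promoters of these genes. An E2F element (TTTCCCGC, TTTGGCGC, TTTCGCGC or TTTGCCGC) was present in 2.26% of the 32851 promoters of the table, a CHR element (TTTGAA or TTCGAA) in 19.2%, the E-box CACGTG in 7.15% and a short core of the CTCF motif (AGGGGGC or AGGTGGC or AGAGGGC or AGATGGC) in 27.6%. The Cdc25a promoter held TTTGGCGC 67 bases before the start and CTCF cores 219 and 182 bases before it. The Cdk4 promoter held the E-box, a sequence that Myc and Max can bind, at 172, 118, 98 and 11 bases before the start, and a CTCF core on the minus strand at 78 bases.
The first Ccnd3 promoter held a CTCF core on the minus strand 16 bases before the start, and the second held one 196 bases before it. Of the promoters not printed, Cdk2 had TTTCCCGC on its minus strand 140 bases before the start, Cdk6 had an E-box at 220 bases and a core at 22 bases, and Ccne1 had none of the spellings. No CHR element was found in the 7 promoters. A match or its lack describes these letters and is not a measurement of binding.

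The lists held 38407 and 34281 STAG2 peaks in quiescent libraries and 47295 and 45582 in proliferating ones, 35594 and 36680 STAG1 peaks in quiescent libraries and 38857 and 50468 in proliferating ones, and 51835 and 71757 CTCF peaks in quiescent libraries and 57528 and 55168 in proliferating ones. The lists hold no read totals, so the depth is unknown, and a longer list can hold more peaks in a window. The 9 windows together held 51 and 42 STAG2 peaks in quiescent libraries and 54 and 54 in proliferating ones. They held 43 and 37 STAG1 peaks in quiescent libraries and 41 and 59 in proliferating ones. For CTCF the windows held 64 and 69 peaks in quiescent libraries and 68 and 61 in proliferating ones. The replicates of STAG1 in proliferating cells thus differed from each other by more than the means of the states did for any of the 3 proteins. Per 10000 peaks of its list, the windows held between 9.62 and 13.3 peaks in every library. For STAG2 these values were 13.28 and 12.25 in quiescent libraries and 11.42 and 11.85 in proliferating ones, the reverse of the order of the raw numbers. The states overlapped on this scale for STAG1 and CTCF.

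The windows differed widely in how densely they were occupied. Averaged over the 12 libraries, the Cdk4 window held 22.7 peaks per 100 kb and the Ccnd1 window 18.5, followed by Ccnd2 with 11.6, Cdc25a with 8.99, Ccnd3 with 6.50, Ccne1 with 6.40, Cdk2 with 5.31, Ccne2 with 4.75 and Cdk6 with 1.92. The median over all protein-coding genes was 3.55 peaks per 100 kb, with quartiles of 1.02 and 7.25. Cdk4 and Ccnd1, a kinase and a partner cyclin, thus had the densest windows of the set, and Cdk6, the other kinase of D cyclins, the sparsest, in the longest gene. Many peaks of a window lie in neighbouring genes, such as Marchf9, Tspan31 and Agap2 beside Cdk4 and LTO1 beside Ccnd1.

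**Figure D1:**
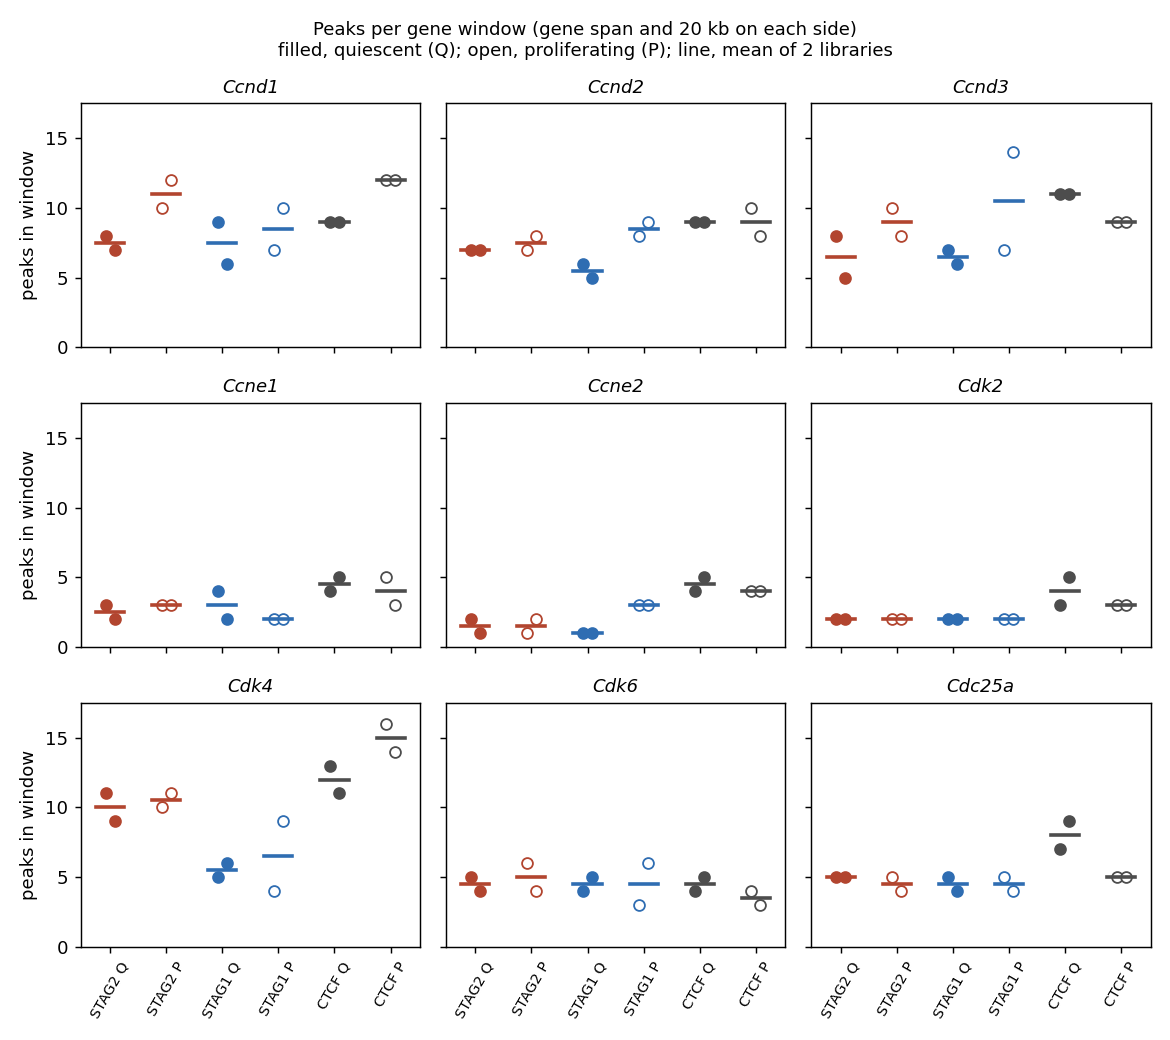
Number of peaks (y axis) in the window of each gene, for STAG2, STAG1 and CTCF in quiescent (Q, filled) and proliferating (P, open) cells (x axis), with 1 point per library and a line at the mean of the 2 libraries. Only CTCF at Ccnd1, Ccnd3, Cdk4 and Cdc25a, STAG2 at Ccnd1 and STAG1 at Ccnd2 and Ccne2 have no overlap between the states. The CTCF points at Ccnd3 and Cdc25a are higher in quiescence and the others lower. How many of all genes lack overlap is not given, so these are descriptions.

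At the D cyclin genes the mean numbers of STAG2 and STAG1 peaks were lower in quiescence in each window, and no difference passed the test over all genes. Both quiescent lists of each STAG protein were shorter than both proliferating ones, and what list length adds to these means was not tested. Over the 3 antibodies, 11148 of the 19088 genes tested had fewer peaks in quiescence. Ccnd1, the D cyclin gene best known as a target of growth factor signalling, had 8 and 7 STAG2 peaks in quiescent libraries and 10 and 12 in proliferating ones. Its window had 9 and 6 STAG1 peaks in quiescent libraries and 7 and 10 in proliferating ones, and 9 and 9 CTCF peaks in quiescent libraries and 12 and 12 in proliferating ones. The states did not overlap for STAG2 and CTCF and overlapped for STAG1. The mean difference over the 3 antibodies, quiescent minus proliferating, was -2.50 peaks, with an exact two-sided permutation p of 0.0278 over 216 arrangements. Adjusted over all 19088 genes with a peak in their window (Benjamini-Hochberg), that p is 1. The difference was -0.33 peaks when each list was limited to its 20000 highest folds (exact permutation p = 0.889), and the exact p was 0.102 without STAG1 quiescent replicate 2 and 0.102 without STAG1 proliferating replicate 2.

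Ccnd2 encodes a D cyclin with tissue-restricted expression. Its window had 7 and 7 STAG2 peaks in quiescent libraries and 7 and 8 in proliferating ones, 6 and 5 STAG1 peaks in quiescent libraries and 8 and 9 in proliferating ones, and 9 and 9 CTCF peaks in quiescent libraries and 10 and 8 in proliferating ones. Of the 3 proteins, STAG1 alone had states that did not overlap there, and the mean difference of -1.17 peaks had an exact permutation p of 0.167. Ccnd3, the third D cyclin gene, had 8 and 5 STAG2 peaks in quiescent libraries and 10 and 8 in proliferating ones, 7 and 6 STAG1 peaks in quiescent libraries and 7 and 14 in proliferating ones, and 11 and 11 CTCF peaks in quiescent libraries and 9 and 9 in proliferating ones. CTCF thus had more peaks in both quiescent libraries while the STAG counts there were at or below those of proliferating libraries. The mean difference of -1.50 peaks had an exact permutation p of 0.444.

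The E cyclin windows had fewer STAG peaks, as raw numbers, in every library than the D cyclin windows. The windows differ in length, with 134639 bp for Ccnd3 against 49507 bp for Ccne1. Over the 3 proteins Ccne1 and Ccne2 held 6.40 and 4.75 peaks per 100 kb, against 6.50 for Ccnd3, 11.6 for Ccnd2 and 18.5 for Ccnd1. Both E cyclin values were above the median of 3.55 over all protein-coding genes. Ccne1 had 3 and 2 STAG2 peaks in quiescent libraries and 3 and 3 in proliferating ones, 4 and 2 STAG1 peaks in quiescent libraries and 2 and 2 in proliferating ones, and 4 and 5 CTCF peaks in quiescent libraries and 5 and 3 in proliferating ones. Ccne2 had 2 and 1 STAG2 peaks in quiescent libraries and 1 and 2 in proliferating ones, 1 and 1 STAG1 peaks in quiescent libraries and 3 and 3 in proliferating ones, and 4 and 5 CTCF peaks in quiescent libraries and 4 and 4 in proliferating ones. The states overlapped or touched except for STAG1 at Ccne2. The mean differences were 0.33 peaks at Ccne1 and -0.50 at Ccne2, with exact permutation p of 0.75 and 0.417.

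Among the kinases, Cdk4 had 11 and 9 STAG2 peaks in quiescent libraries and 10 and 11 in proliferating ones, 5 and 6 STAG1 peaks in quiescent libraries and 4 and 9 in proliferating ones, and 13 and 11 CTCF peaks in quiescent libraries and 16 and 14 in proliferating ones. Only CTCF had states that did not overlap there, and the mean difference of -1.50 peaks had an exact permutation p of 0.231. Cdk6 had between 3 and 6 peaks in each library and a mean difference of 0.17 peaks (exact permutation p = 1). Cdk2, the partner of E cyclins, had 2 peaks in every STAG2 and STAG1 library, and 3 and 5 CTCF peaks in quiescent libraries against 3 and 3 in proliferating ones; the mean difference was 0.33 peaks (exact permutation p = 1). Cdc25a had 4 or 5 peaks in every STAG library, and 7 and 9 CTCF peaks in quiescent libraries against 5 and 5 in proliferating ones. Its mean difference was the highest of the set, 1.17 peaks, with an exact permutation p of 0.167.

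No member and none of the 19088 genes, 0.0%, passed the adjusted threshold of 0.05 in the exact permutation test, whose smallest possible p is 0.00926. At an unadjusted exact p below 0.05 the test had 540 genes, or 2.83%, of which 520 had fewer peaks in quiescence and 20 more; of the 9 members this was Ccnd1. Counted per 10000 peaks of each list, no gene passed the adjusted threshold, again 0.0%, and 1652 genes, or 8.65%, had an unadjusted exact p below 0.05, of which 444 had fewer and 1208 more in quiescence. On that scale Ccnd1 had a difference of -0.25 (exact permutation p = 0.25), while Cdk2, with 0.11 (exact permutation p = 0.00926), and Cdc25a, with 0.35 (exact permutation p = 0.0185), had differences above 0, with adjusted p of 0.231 for Cdk2 and 0.357 for Cdc25a. Cdk2 had 2 peaks in each STAG library, so its STAG differences on that scale come from the lengths of the lists. Cdc25a had 4 or 5 peaks in each STAG library, so list lengths enter its STAG differences on that scale too, and how much they add was not tested. Its CTCF peaks were 7 and 9 in quiescent libraries against 5 and 5 in proliferating ones. As numbers of peaks and counted at any p, 5 of the 9 members had fewer peaks in quiescence and 4 more, against 11148 and 6133 of all genes tested. The median difference was -0.50 peaks over the members and -0.17 peaks over all genes tested; per 10000 peaks, 7980 of all genes were lower and 11108 higher in quiescence. An antibody alone, with 2 libraries against 2, cannot go below an exact p of 0.333. A lack of overlap between the states for 1 protein is therefore a description, and its share over all genes is not given.

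STAG2 was set against STAG1 in the same windows. Cdk4 had 11 and 9 STAG2 peaks against 5 and 6 STAG1 peaks in quiescent cells, and 10 and 11 STAG2 peaks against 4 and 9 STAG1 peaks in proliferating cells. STAG2 was thus above STAG1 without overlap in each state. The mean difference, STAG2 minus STAG1, was 4.25 peaks with an exact permutation p of 0.0556, the smallest that the 36 arrangements allow, so that no call was possible; 438 of 18338 genes tested reached it. The difference was 1.50 peaks with lists of 20000 peaks and 2.00 with peaks of −log10 q of at least 5. The other members ranged from -0.75 peaks at Ccnd3 to 1.25 at Ccnd1, with a median over the 9 members of 0.25 against 0.00 over all genes tested.

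All 9 genes had cohesin at an end. A gene was counted as occupied when both libraries of a group had a peak within 1 kb of an end of its span, since the table of all genes gives no strand. STAG2 occupied 9 of 9 members in quiescent cells, where it occupied 54.3% of all protein-coding genes, and 9 of 9 in proliferating cells, where the share of all genes was 54.6%. STAG1 occupied 9 of 9 in quiescent cells and 9 of 9 in proliferating cells, against 47.0% and 48.8% of all genes. CTCF occupied 8 of 9 in quiescent cells and 8 of 9 in proliferating cells, against 46.6% and 50.1% of all genes. Ccnd3 was the gene without CTCF within 1 kb of an end in both libraries of a state. With 2 kb CTCF occupied 9 of 9 genes in both states: the Ccnd3 site chr17:47597752-47598572, 1117 bp from the upper end, had CTCF folds of 23.5 and 30.4 in quiescent libraries and 32.4 and 13.8 in proliferating ones.

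**Figure D2:**
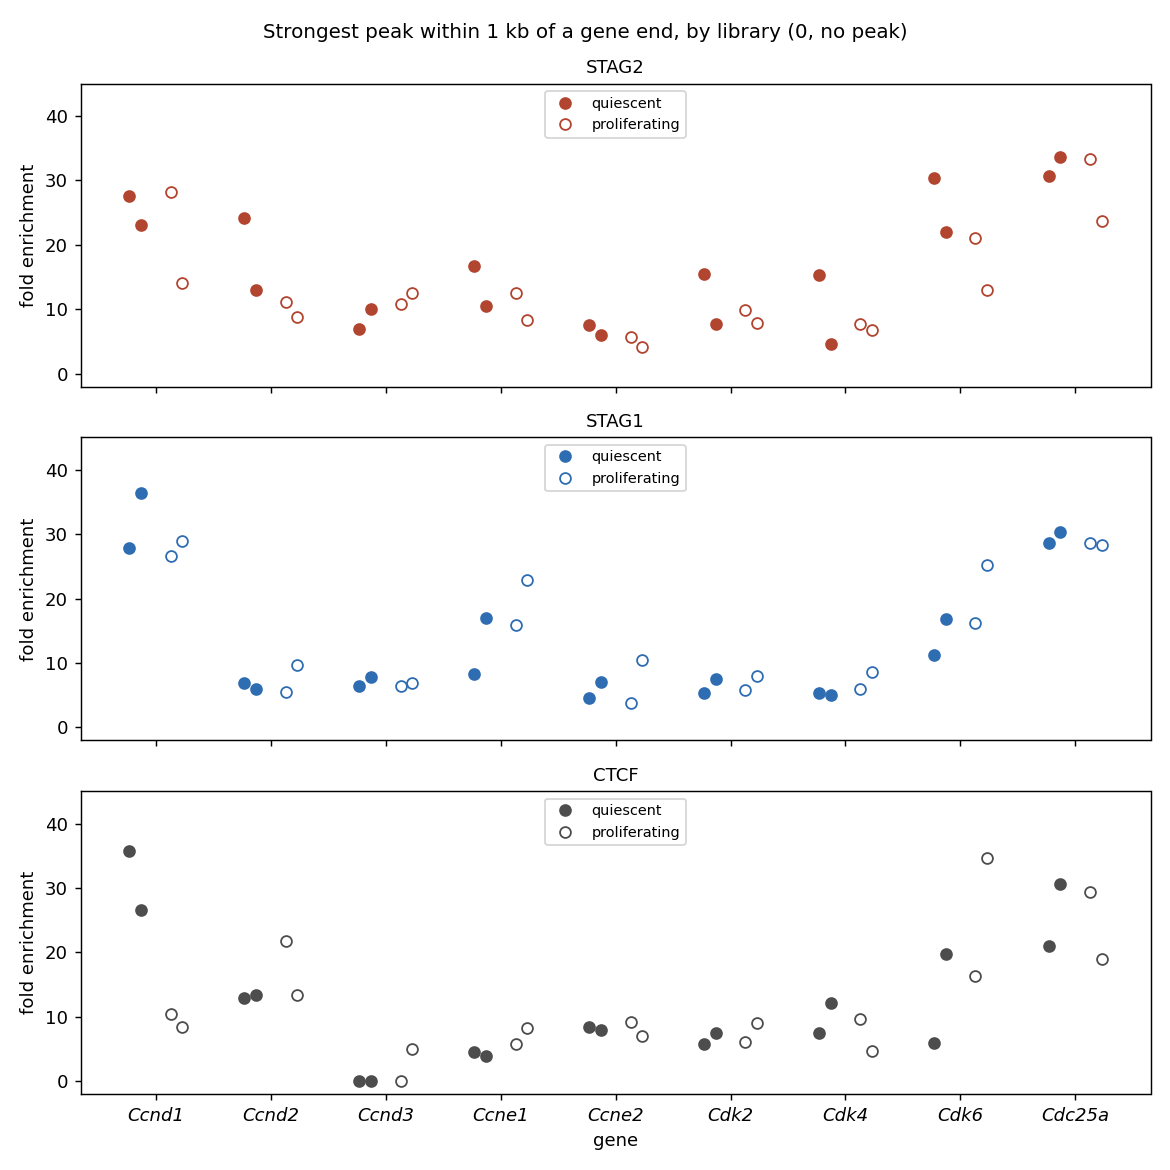
The authors' fold enrichment (y axis) of the strongest STAG2, STAG1 and CTCF peak within 1 kb of an end of each gene (x axis), with 1 point per library, filled for quiescent and open for proliferating cells, and 0 where no peak was listed. Ccnd1 and Cdc25a are high for STAG2 and STAG1, and Ccnd3 is at 0 for CTCF in 3 of 4 libraries. At Ccnd1 the strongest CTCF peak of the upper end reaches into the 1 kb in the quiescent libraries only.

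The fold enrichments are the authors' values for each peak and describe the strength of peaks within a list. Folds from several lists stand side by side below as descriptions, with no test. The median STAG2 fold of the whole list was 9.48 and 9.81 in quiescent libraries and 7.98 and 6.99 in proliferating ones. As the percentile of the strongest gene-end peak within its list, averaged over the 12 libraries with 0 where there was none, Cdc25a stood at 89.3, Ccnd1 at 83.4, Cdk6 at 76.8, Ccnd2 at 60.3, Ccne1 at 53.5, Cdk2 at 44.0, Cdk4 at 40.0, Ccne2 at 34.7 and Ccnd3 at 33.4. Neighbours in this order overlapped in their ranges over libraries. Ccnd1 had 4 of 4 STAG2 libraries between percentiles 80.9 and 91.8 and Cdc25a between 90.2 and 94.5, so these were among the stronger STAG2 peaks in every list.

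The start sites differed in the company that STAG2 kept. At the first Ccnd3 start, STAG2 had folds of 6.86 and 10.05 in quiescent libraries and 10.8 and 12.5 in proliferating ones, and STAG1 had 6.40 and 7.77 in quiescent libraries and 6.40 and 6.90 in proliferating ones. Both quiescent STAG2 folds were below both proliferating ones, the reverse of the medians of the whole STAG2 lists, and the states overlapped for STAG1. No CTCF library had a peak in that site, chr17:47504570-47505443, whose centre lies 44 bases before the start. It was thus a cohesin site of all 8 STAG libraries with no CTCF peak in 4. The nearest CTCF site, chr17:47502845-47503589, had folds of 13.5 and 21.3 in quiescent libraries and 14.7 and 9.50 in proliferating ones and no STAG peak.

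At the second Ccnd3 start the picture differed. STAG2 had folds of 7.75 and 5.75 in quiescent libraries and 4.50 and 5.25 in proliferating ones. Both quiescent STAG2 folds were above both proliferating ones, as were the medians of the whole STAG2 lists. STAG1 had 5.66 and 4.00 in quiescent libraries and 0 and 5.0 in proliferating ones. CTCF had 6.42 and 6.25 in quiescent libraries and no peak in either proliferating one, which makes this start a gained CTCF site. All these peaks were weak, and a peak just under the authors' threshold is listed as none. At the upper end of the span, chr17:47598595-47599148 had a peak in proliferating replicate 2 of STAG1 (fold 3.67) and of CTCF (fold 4.99) and in no other library.

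Cdc25a had peaks of all 3 proteins at its start. In the site chr9:109875036-109876566, CTCF had folds of 19.6 and 22.3 in quiescent libraries and 25.3 and 19.0 in proliferating ones. STAG2 had 5.67 and 8.30 in quiescent libraries and 7.93 and 7.67 in proliferating ones, and STAG1 had 5.66 and 8.34 in quiescent libraries and 7.67 and 9.67 in proliferating ones. All 12 libraries had a peak, with the states overlapping for each protein. The promoter printed for Cdc25a, with its E2F element and CTCF cores, lies inside this site.

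Stronger cohesin peaks stood at the far end of Cdc25a. The site chr9:109894554-109895261, 659 bp past the span, had STAG2 folds of 30.7 and 33.7 in quiescent libraries and 33.4 and 23.7 in proliferating ones. Its STAG1 folds were 28.7 and 30.4 in quiescent libraries and 23.3 and 28.3 in proliferating ones, and its CTCF folds 18.3 and 30.7 in quiescent libraries and 29.3 and 12.3 in proliferating ones. It was the strongest site of the Cdc25a window, at a mean percentile of 87.7. The states overlapped for STAG2 and CTCF, and both quiescent STAG1 folds were above both proliferating ones, the nearest pair by a small margin. A second site at that end, chr9:109892226-109893276 inside the gene, was also called in all 12 libraries, with folds between 11.9 and 28.7.

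Cdk4, whose promoter held 4 E-boxes, had both STAG proteins at its start in every library. STAG2 had folds of 15.3 and 4.67 in quiescent libraries and 7.67 and 6.75 in proliferating ones, and STAG1 had 5.34 and 5.00 in quiescent libraries and 6.04 and 8.67 in proliferating ones. Both quiescent STAG1 folds were below both proliferating ones, and the states overlapped for STAG2. CTCF had 0 and 5.00 in quiescent libraries and 8.0 and 0 in proliferating ones, so that each state had a CTCF peak in 1 of its 2 libraries. The STAG2 peak of quiescent replicate 1 stood above the others. At the far end of the gene CTCF stood alone in the site chr10:127066202-127066854, with folds of 7.56 and 12.1 in quiescent libraries and 9.67 and 4.67 in proliferating ones and no STAG peak. A single weak STAG2 peak of proliferating replicate 1 (fold 5.41) lay just past that end, at chr10:127067776-127068105.

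Cdk6 and Ccne1 had stronger cohesin at their starts. For Cdk6, in the site chr5:3340911-3344913, STAG2 had folds of 30.3 and 22.0 in quiescent libraries and 21.0 and 13.0 in proliferating ones, and CTCF had 29.0 and 20.01 in quiescent libraries and 23.5 and 34.7 in proliferating ones. STAG1 had 16.0 and 19.9 in quiescent libraries and 16.2 and 25.2 in proliferating ones. Both quiescent STAG2 folds were above both proliferating ones, as were the medians of the whole STAG2 lists, and the states overlapped for STAG1 and CTCF. This start lies inside the annotated span and more than 1 kb from its lower end, so the gene-end plot can show other peaks of the same site.
For Ccne1, in the site chr7:38106510-38108313, STAG2 had 16.8 and 10.5 in quiescent libraries and 12.5 and 8.25 in proliferating ones, and STAG1 had 8.34 and 17.0 in quiescent libraries and 16.0 and 23.0 in proliferating ones. CTCF had 4.50 and 4.00 in quiescent libraries and 5.75 and 8.25 in proliferating ones. Both quiescent CTCF folds were below both proliferating ones, and the states overlapped for STAG2 and STAG1. The Cdk2 start had folds between 5.37 and 15.5 in all 12 libraries, in the site chr10:128704386-128705575, which overlaps Pmel.

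For Ccnd1, Ccnd2 and Ccne2 the ends are described without saying which holds the start. Ccnd1 had sites at both ends, Ccnd2 at the upper end only and Ccne2 at the lower end only. The Ccnd1 site at the upper end, chr7:144936817-144940715, had STAG2 folds of 27.6 and 23.0 in quiescent libraries and 28.2 and 24.0 in proliferating ones, STAG1 folds of 27.8 and 36.4 in quiescent libraries and 26.6 and 29.0 in proliferating ones, and CTCF folds of 35.8 and 26.6 in quiescent libraries and 26.2 and 29.8 in proliferating ones. It was the strongest site of the window, at a mean percentile of 89.3, and it was broad, with several separate peaks in some libraries. The lower end, chr7:144928602-144930588, which overlaps LTO1, was weaker, with folds between 4.99 and 10.5 in the 12 libraries. The number of separate peaks in this cluster varied between libraries of a protein, as the map of the window shows, and with it the count for the window.

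The Ccnd2 end site chr6:127151469-127152854 had STAG2 folds of 24.1 and 13.0 in quiescent libraries and 10.2 and 8.82 in proliferating ones. Both quiescent folds exceeded both proliferating ones, as did the medians of the whole STAG2 lists. STAG1, with 6.96 and 6.04 in quiescent libraries and 5.57 and 9.75 in proliferating ones, overlapped. CTCF had 13.0 and 13.5 in quiescent libraries and 21.8 and 13.5 in proliferating ones. At the same end chr6:127149049-127151294 was called in all 12 libraries with folds between 5.17 and 11.7, and chr6:127153143-127153914 in 4. Ccne2, at its lower end in the site chr4:11190397-11192523, had folds between 3.75 and 10.5 in the 12 libraries, and this was also the strongest site of its window, at a mean percentile of 35.6.

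**Figure D3:**
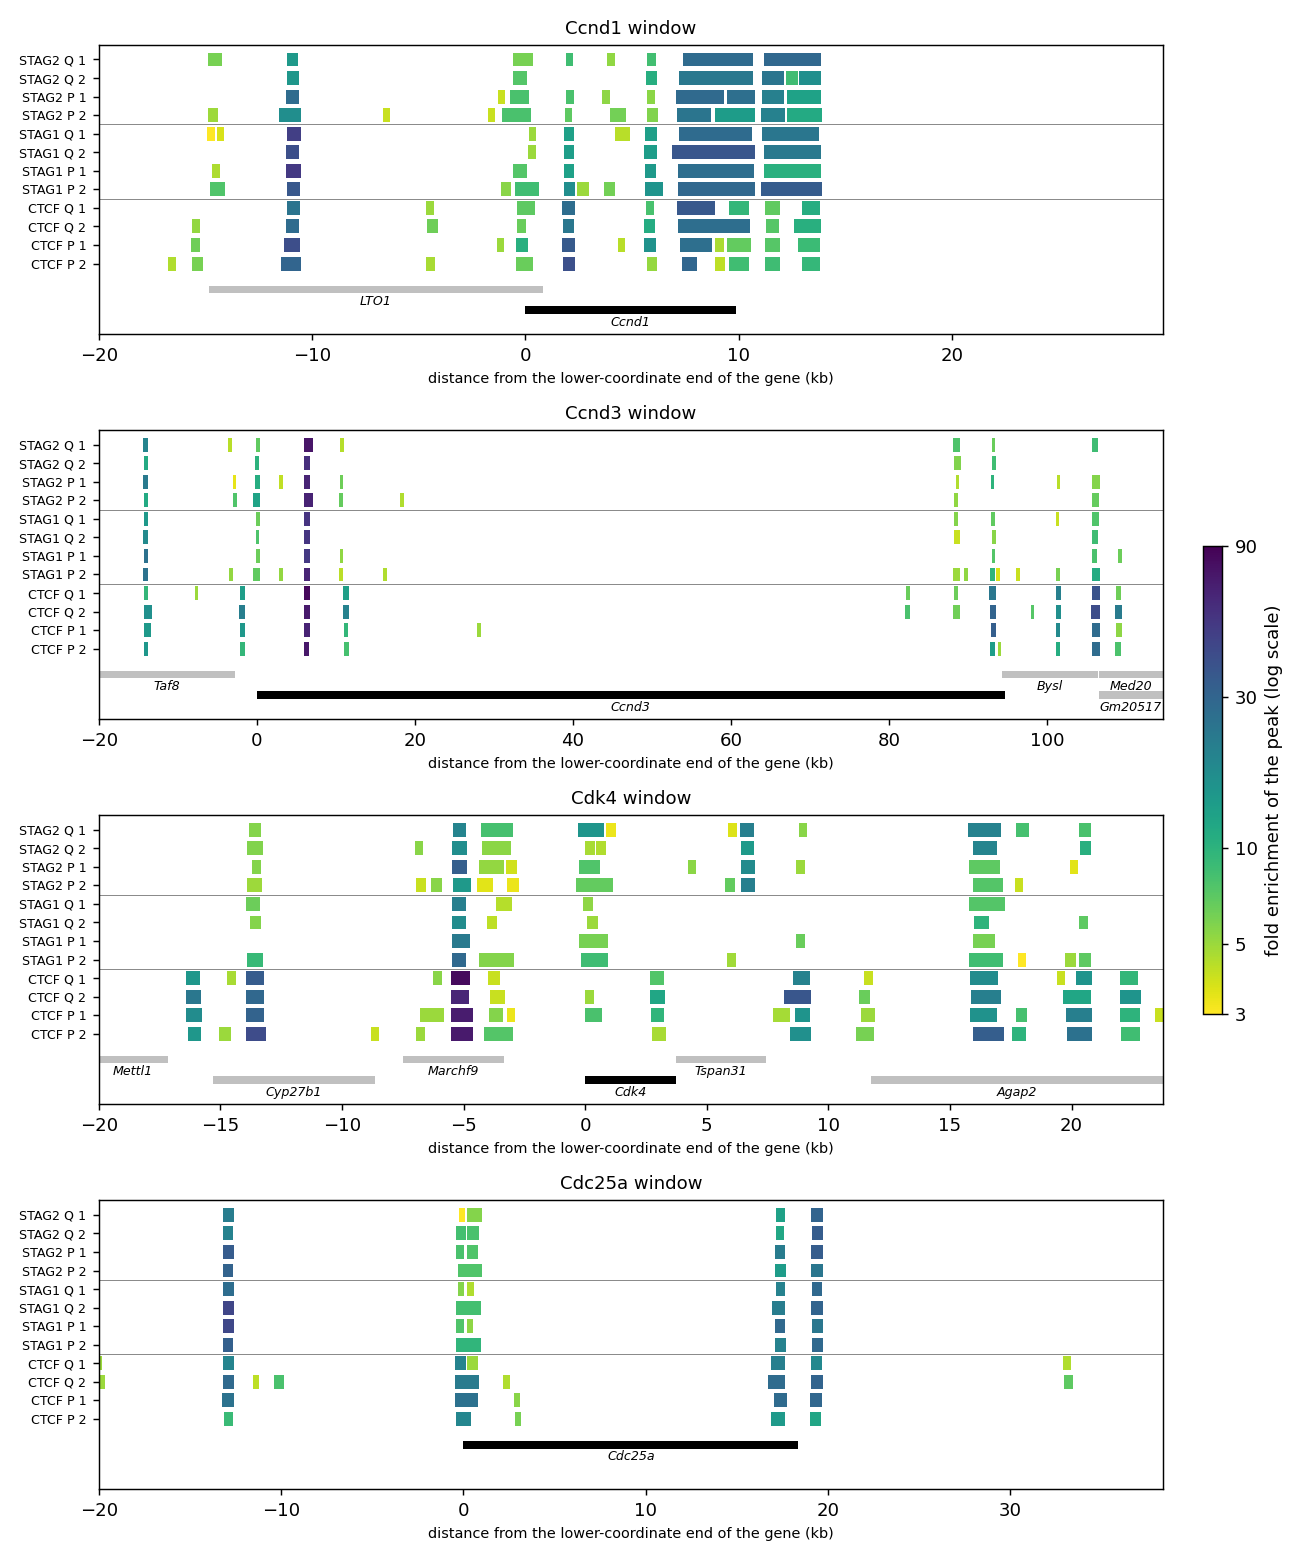
Peaks of the 12 libraries in the windows of Ccnd1, Ccnd3, Cdk4 and Cdc25a, drawn to scale by distance in kb from the lower-coordinate end of the gene (x axis, a different scale in each panel; narrow peaks are widened to 1/300 of the panel) and coloured by the authors' fold enrichment on a log scale. Libraries of quiescent (Q) and proliferating (P) cells run down the page by protein; the black bar is the gene and grey bars are neighbouring protein-coding genes. The site about 6 kb inside Ccnd3 is dark in all 12 libraries, and the STAG2 peaks of the site in Tspan31 called in all 4 STAG2 libraries have no STAG1 or CTCF peak in that site.

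The strongest site of all 9 windows lay inside Ccnd3. It stood at chr17:47510993-47512127, its nearest edge 5942 bp from the lower end of the gene, at a mean percentile of 99.1. STAG2 had folds of 74.4 and 56.9 in quiescent libraries and 63.9 and 64.9 in proliferating ones, STAG1 53.9 and 52.9 in quiescent libraries and 51.4 and 62.9 in proliferating ones, and CTCF 83.3 and 71.4 in quiescent libraries and 65.4 and 71.9 in proliferating ones. The states overlapped for all 3 proteins. Other strong sites were chr6:127147591-127148216 inside Ccnd2 (mean percentile 93.2), chr5:3543428-3544421 at Fam133b beyond Cdk6 (91.3) and chr10:127058008-127058910 at Marchf9 beside Cdk4 (88.4).
At the Fam133b site CTCF had folds between 68.5 and 101 and the STAG proteins between 20.6 and 30.2. The strongest sites of the Ccne1 and Cdk2 windows were weaker, chr7:38084541-38086415 at a mean percentile of 61.4 and chr10:128695635-128696465, at Rab5b and Pmel, at 44.6.

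Of the 99 sites, 24 were called in all 12 libraries, or 24.2%, against 15.9% of all sites, and 24 in 1 library only, again 24.2%, against 32.9% of all sites. The Ccnd1 window held 5 of the sites in all libraries, Ccnd2 and Cdc25a 4 each, Ccne2 1 and each other window 2. No test was made of these shares. CTCF peaks alone made up 34 sites, and 8 of these were called in all 4 CTCF libraries.
Those 8 made up 18.2% of the 44 sites in all 4 CTCF libraries, against 19.4% over the genome, and 4 of them were in the Cdk4 window and 2 in the Ccne2 window.

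STAG2 sites of the windows mostly carried CTCF. Of 35 STAG2 sites called in both quiescent libraries, 29, or 82.9%, had a peak in both quiescent CTCF libraries, against 74.2% over the genome. Of 38 called in both proliferating libraries, 29, or 76.3%, had CTCF in both, against 71.9%. Of the 32 sites in all 4 STAG2 libraries, 3, or 9.38%, had no CTCF peak in any library, against 8.44% over the genome, and 26 had CTCF in all 4. The members' shares were thus near those of all sites.

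**Figure D4:**
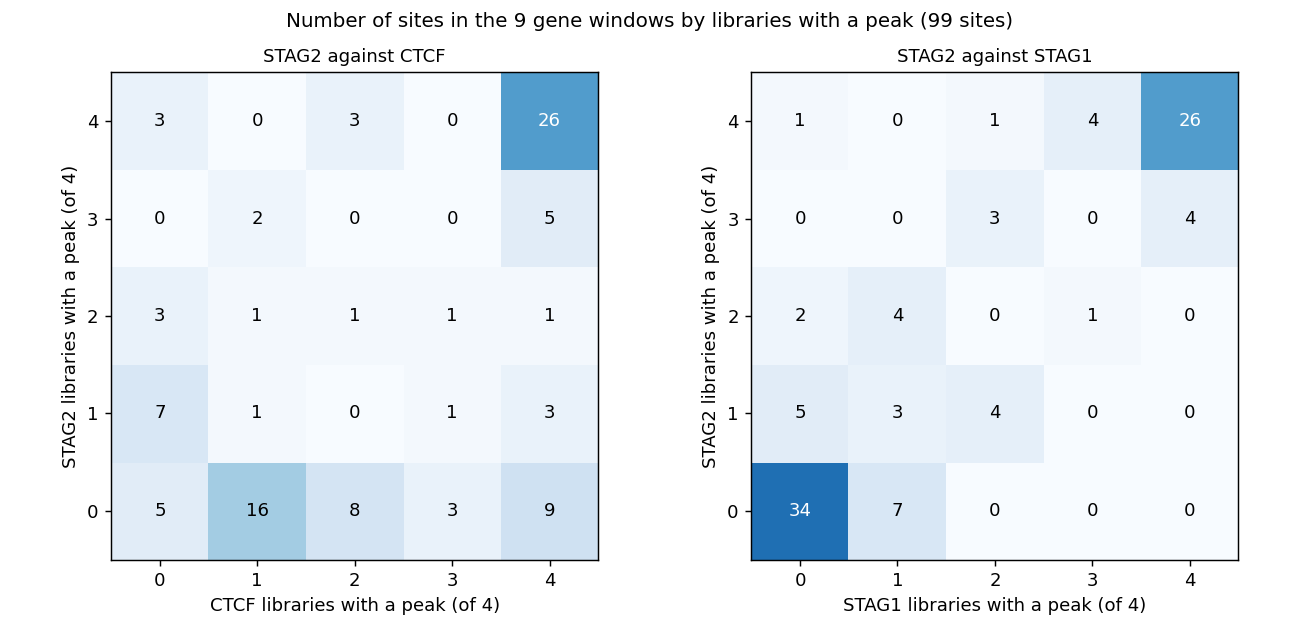
Number of the 99 sites (figure in each cell) by how many of the 4 STAG2 libraries (y axis) and how many of the 4 CTCF libraries (left panel, x axis) or STAG1 libraries (right panel, x axis) had a peak there. In each panel 26 sites stand in the corner with all 8 libraries, and 9 sites have CTCF in all 4 libraries with no STAG2.

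The 3 stable STAG2 sites without CTCF were the first Ccnd3 start, a site inside Cdk6 and a site beside Cdk4. The Cdk6 site, chr5:3493739-3494903, had STAG2 folds of 6.99 and 7.33 in quiescent libraries and 7.49 and 6.0 in proliferating ones, and STAG1 in 1 library of each state. The site beside Cdk4, chr10:127069910-127070538, lies in Tspan31, a tetraspanin gene, 2622 bp past the end of Cdk4. STAG2 had folds of 21.0 and 14.3 in quiescent libraries and 17.7 and 21.0 in proliferating ones. No STAG1 and no CTCF library had a peak there.
It was the 1 member site of 32 in all 4 STAG2 libraries without any STAG1 peak, or 3.13%, against 0.873% over the genome. Its mean fold percentile over the 12 libraries, counting 0 for the 8 without a peak, was 26.8.

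Few sites of a protein were called in both libraries of 1 state and in neither library of the other. A site was counted as lost where both proliferating libraries of a protein had a peak and neither quiescent library did, and as gained where the reverse held. For STAG2, 1 of 38 member sites was lost, or 2.63%, against 10.2% of all STAG2 sites, and 1 of 35 was gained, or 2.86%, against 1.93%. The lost site, chr17:47501991-47502509 at an end of Taf8 in the Ccnd3 window, had folds of 3.40 and 7.67 in proliferating libraries. The gained site, chr6:127154779-127155533, 2591 bp past the end of Ccnd2, had folds of 6.79 and 4.53 in quiescent libraries.
Leaving out a library loosens the definition at all sites of the genome. The share over all sites is not given for any protein under it, so such counts cannot be read as particular to these genes. The lost STAG2 sites were 6 without quiescent replicate 1, 5 without proliferating replicate 1 and 7 without proliferating replicate 2, and the gained ones 3 without quiescent replicate 2 and 3 without proliferating replicate 1.

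For STAG1, 3 of 35 sites were lost, or 8.57%, against 7.75% of all STAG1 sites, and 0 of 33 were gained, against 1.28%. The lost sites were chr6:127105017-127105623 at Tigar and chr6:127141556-127143201 inside Ccnd2, and chr17:47515445-47516693 inside Ccnd3. Each had CTCF in all 4 libraries. At the site inside Ccnd2 the STAG1 folds were 5.99 and 4.99 in proliferating libraries, and CTCF had folds of 19.0 and 25.0 in quiescent libraries and 36.4 and 29.4 in proliferating ones. Both quiescent CTCF folds at that site were below both proliferating ones.
The lost STAG1 sites were 5 without quiescent replicate 1, 14 without proliferating replicate 1 and 5 without proliferating replicate 2, and the gained ones 1 without quiescent replicate 1 and 3 without proliferating replicate 2. Proliferating replicate 2 had the longest STAG1 list.

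For CTCF, 2 of 49 sites were lost, or 4.08%, against 4.58% of all CTCF sites, and 7 of 53 were gained, or 13.2%, against 7.64%. The lost sites were chr9:109878295-109878655 inside Cdc25a and chr10:127081097-127081789 in Agap2 beside Cdk4, with folds of 5.49 and 5.99, and of 8.19 and 10.0, in proliferating libraries. The gained sites were 2 in each of the Ccnd3, Ccne1 and Cdc25a windows and 1 at Ccne2, with folds between 4.49 and 7.98 in quiescent libraries. Of these, 6 had no STAG peak in any library, and the exception was the second Ccnd3 start.
Positions of the gained sites were chr17:47587089-47587679 and chr17:47593110-47594092 inside Ccnd3, chr7:38079218-38079577 and chr7:38082300-38082812 beside Ccne1, chr4:11199904-11200407 inside Ccne2, and chr9:109855308-109855860 and chr9:109908432-109908972 beside Cdc25a. The gained CTCF sites were 15 without quiescent replicate 1 and 10 without quiescent replicate 2. They were 8 without proliferating replicate 1 and 8 without proliferating replicate 2. Quiescent replicate 2 had the longest list of all 12. The lost ones were 4 without quiescent replicate 2, 7 without proliferating replicate 1 and 8 without proliferating replicate 2.

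The wider pathway was described with 30 genes, of which those past the unadjusted threshold and the 3 with the highest gene-end percentile are named: the retinoblastoma family, E2F and DP factors, CDK inhibitors, other CDC25 and WEE1 enzymes, the CDK-activating kinase, A cyclins, the ubiquitin ligase parts that act on cyclins and inhibitors, and Myc. STAG2 occupied an end of 25 of the 30 in quiescent cells and 25 in proliferating cells, against 54.3% and 54.6% of all genes. STAG1 occupied 23 and 24, against 47.0% and 48.8%, and CTCF 23 and 24, against 46.6% and 50.1%. Occupied ends were thus not particular to the 9 members. None passed the adjusted threshold for the number of peaks, and at an unadjusted exact p below 0.05 there was 1 with fewer peaks in quiescence, Cks1b, a cofactor of the SKP2 ubiquitin ligase, with a difference of -2.67 peaks (exact permutation p = 0.0278), and 0 with more. Over all genes tested, 2.83% had an unadjusted exact p below 0.05. At any p, 11 of the 30 had fewer peaks in quiescence and 16 more, with a median of 0.08 peaks. Per 10000 peaks, 2 of the 30 had an unadjusted exact p below 0.05 with fewer in quiescence, Cks1b and E2f2, and 2 with more, Rbl1 and E2f5. On that scale 8.65% of all genes tested had such a p. The strongest gene-end peaks on average were at Cdkn2b, at percentile 95.6, Cdkn2a, at 87.2, which share a locus and encode inhibitors of CDK4 and CDK6, and at Myc, at 85.8.

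For each member, the 2 genes nearest in the percentile of the strongest gene-end peak over the 12 libraries were found, with the mean absolute difference in percentile points. They were Tmem220 (1.71) and Gm8439 (2.00) for Cdc25a, Homer1 (4.90) and Ppp1r3e (5.88) for Ccnd2, Rnf150 (5.76) and Rnf43 (6.07) for Ccnd1, Aatf (6.03) and Cmc1 (6.76) for Cdk2, and Sp3 (6.06) and Hs6st1 (6.33) for Cdk6. Farther off were Aasdhppt and Kbtbd3 (6.83 each) for Ccnd3, Mief1 (7.53) and Stam2 (9.32) for Cdk4, Nexn (8.18) and Erlin1 (8.39) for Ccne1, and Spag5 (8.35) and Insl3 (8.84) for Ccne2. No member was among the nearest of another.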

How the data were processed

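Reads were handled with MACS2, BWA, HOMER, Picard and bcl2fastq on mm10, per the submitters' processing notes, and the versions are not given in the sources used here. A peak list per library was deposited, so replicates were not pooled. Each deposited list gives a fold enrichment (a ratio over background), −log10 p-values and q-values, a whole-number score and the summit's offset; whether the background was input or IgG was not settled. Positions, folds and −log10 q-values were used. Libraries were grouped from the labels, which call replicates biological.

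Genes came from RefSeq on GRCm38.p6, the same build as mm10. Peaks that share at least 1 bp were merged into sites. That table holds no strand, and 3 of the 9 genes have no promoter entry, so gene ends (1 kb on each side) replaced start sites for all genes. Peaks per window were compared by an exact permutation test, two-sided, in which states were exchanged within an antibody or STAG antibodies within a state, with Benjamini-Hochberg adjustment over all genes with a peak in the window; the test was checked on simulated data. The genes and lists were chosen with earlier results of these data known. Sites named are those at gene ends, the strongest by mean fold percentile, lost and gained ones, and those in all 4 STAG2 libraries without CTCF. Alternatives were −log10 q of at least 5, lists of 20000 peaks, peaks per 10000, flanks of 10 and 50 kb, matches of 100 bp, ends of 0.5 and 2 kb, a replicate block, each library left out and, added after the data were seen, peaks wholly inside the window. Python 3.11.15, numpy 2.4.6, pandas 2.3.3 and matplotlib 3.10.9 were used.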

Additional observations from a re-analysis of the deposited data

How the results depend on the processing

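No member passed the adjusted threshold in either comparison under any alternative run. For STAG2 minus STAG1 none could pass, since the smallest possible exact permutation p with all 8 libraries was 0.0556. For quiescent minus proliferating the smallest was 0.00926, or 0.0313 with the replicate block. With 19088 genes, an adjusted pass would need many genes to reach it together, so the lack of passes is no measure of robustness. The replicate numbers pair nothing by the labels, and the replicate differences of the states correlated at 0.0491 for STAG2, -0.00956 for STAG1 and -0.0941 for CTCF over 19088 genes; with the replicate block 0 members passed, the exact permutation p was 0.0938 for Ccnd1 and 0.125 for STAG2 minus STAG1 at Cdk4. Quiescent minus proliferating turned its sign with −log10 q of at least 5 at Ccne1 (-0.33), Ccne2 (0.17) and Cdk4 (0.33), with 20000 peaks per list at Ccnd3 (0.17), Ccne1 (-0.17), Ccne2 (0.33) and Cdk4 (1.00), and with 50 kb flanks at Ccne1 (-0.83) and Ccne2 (1.33). With a library left out it ran from -0.33 to 0.67 at Cdk6. STAG2 minus STAG1 turned its sign with 20000 peaks at Cdk6 (-0.25) and Cdc25a (-0.50) and with 50 kb flanks at Ccne1 (-0.75). With a library left out it ran from -2.50 to 1.00 at Ccnd3, from -0.25 to 0.75 at Ccne1 and from -0.50 to 1.00 at Cdk6. The Ccnd1 difference stayed below 0 under all alternatives run but was -0.33 (exact permutation p = 0.889) with 20000 peaks per list. STAG2 minus STAG1 at Cdk4 stayed above 0 and was 1.50 with 20000 peaks per list.

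With −log10 q of at least 5, CTCF lost 4 sites and gained 4. With 20000 peaks per list, 0 STAG2, 0 STAG1 and 0 CTCF sites were lost and 2, 1 and 2 gained, and STAG2 sites with CTCF were 11 in quiescent and 11 in proliferating cells. Occupied ends in quiescent and proliferating cells were then 5 and 7 for STAG2, 4 and 4 for STAG1 and 2 and 3 for CTCF. Fewer peaks enter this setting. With 10 kb flanks CTCF lost 1 and gained 3; with 50 kb flanks STAG1 lost 8, CTCF gained 14 and STAG2 sites with CTCF were 53 in each state. With a library left out, STAG2 lost between 1 and 7 and gained between 1 and 3, STAG1 lost between 3 and 14 and gained between 0 and 3, and CTCF lost between 3 and 8 and gained between 8 and 15. Shares over all sites or genes are not given for these settings, so the counts describe the settings and no trait of these genes.

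The lists hold no reads, so peaks just under the authors' threshold count as absent, and 2 libraries per group give coarse tests.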
